A study of Rattus norvegicus with 6 samples.

Results

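The transcripts of 5 connexins (Gja1, Gja4, Gja5, Gjb2 and Gjc1) and 1 pannexin (Panx1) were examined as gap junction genes of the vessel wall, 6 of the 16770 genes in the deposited table. They were taken by gene symbol, all 6 were found, and all 6 passed the filter on low counts. The samples were RNA sequencing libraries of cells grown from pieces of the proximal aorta of 3-month-old rats of 2 inbred strains, the spontaneously hypertensive rat (SHR, 3 libraries) and its normotensive comparison strain Wistar Kyoto (WKY, 3 libraries). The labels name no treatment. In both strains the pieces lay with the luminal face down in culture wells, and the outgrowing cells were kept in a medium made for endothelium that held serum, antibiotics and a growth supplement. In each strain, replicates 1 and 2 belonged to batch 1 and replicate 3 to batch 2. The labels count 3 per strain without tying a library to an animal or a culture, so the p-values speak only of the spread among libraries, which may be technical.

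Connexins assemble in rings of subunits called hemichannels, and hemichannels of neighbouring cells dock into gap junction channels that pass ions, second messengers and small metabolites. In arteries they carry signals along the endothelium, between muscle cells and between both layers, and connexin 37, connexin 40 and connexin 43 are the best known there. Pannexins share the membrane topology of connexins but mostly form channels to the outside, through which ATP leaves the cell.

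Libraries held 18462032 to 19947286 estimated counts, and levels are given as CPM, counts scaled to a common library size after TMM, a trimmed-mean correction. A gene listed at 0 could have up to 3 counts, or 0.151 to 0.187 CPM depending on the library. Batch set the libraries apart: 43.5% of the 12614 genes tested differed between batch 2 and batch 1 at an adjusted p below 0.05, against 0.254% (32 genes) between SHR and WKY. With the replicate number as a block the strain count was 6 genes. The labelled cell type did not match its markers. Of 16 endothelial markers 13 were measured, and 7 of these lay below 1 CPM in every library. Cdh5, which encodes the adhesion protein VE-cadherin of endothelial junctions, was at 0 to 0.105 CPM in SHR libraries and at 0 in all WKY libraries, and Pecam1, another junction protein gene of endothelium, was at 0.459 to 2.18 CPM in SHR and 0.106 to 0.435 CPM in WKY. The summed endothelial list lay at 49.1 to 78.0 CPM in SHR and 26.1 to 102 CPM in WKY, most of it from Flt1 and Egfl7. The cells are therefore called aortic explant cells below. In such bulk RNA, fewer cells of a type and less RNA per cell cannot be told apart. Of the 5 endothelial markers tested, edgeR called 0 between strains and 0 between batches. By unadjusted p below 0.05, 1 was higher and 0 lower in SHR (6.1% of all genes were higher). DESeq2 called 1 higher, where it called 5.14% of genes with an adjusted p in either direction. Tek had 4.72, 9.38 and 8.32 CPM in SHR and 0.656, 1.85 and 0.435 CPM in WKY (edgeR adjusted p = 0.182). Its strains did not overlap, a pattern of 9.81% of all genes tested.

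**Figure D1:**
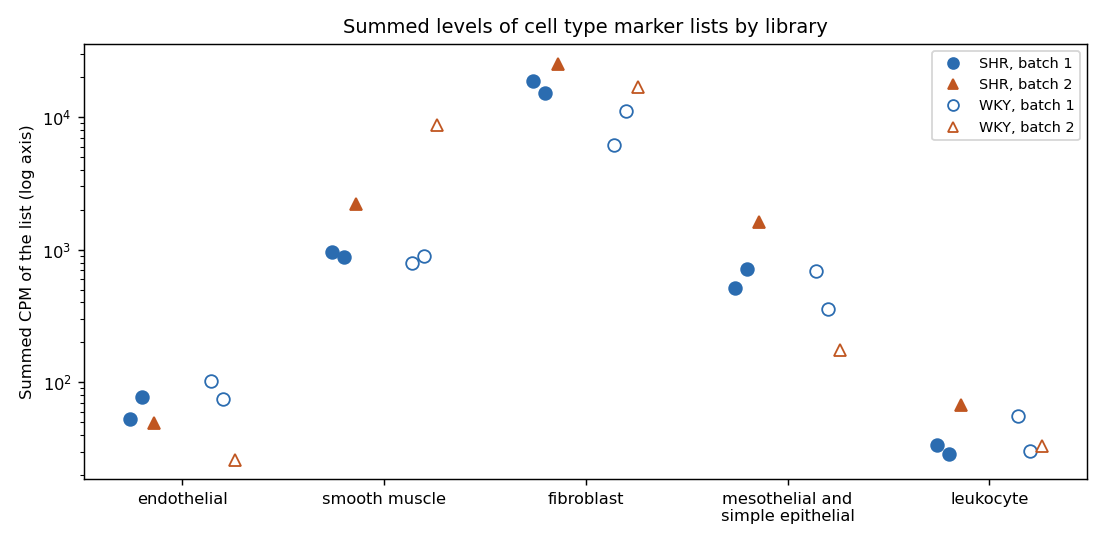
Summed CPM (log axis) of 5 lists of cell type markers in each library, with SHR as filled and WKY as open symbols, and batch 1 as circles and batch 2 as triangles. Endothelial sums stayed between 26.1 and 102 CPM, while the smooth muscle sum reached 2213 CPM in the SHR library and 8703 CPM in the WKY library of batch 2.

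The smooth muscle list (12 genes, all measured) summed to 879 to 2213 CPM in SHR and 787 to 8703 CPM in WKY, and 9 of its 11 tested members were higher in batch 2, where 21% of all genes tested were. Between strains edgeR called 0 of the 11, with 2 lower in SHR by unadjusted p below 0.05, where 7.18% of all genes were lower. Within batch 1 the sums were 879 and 962 CPM in SHR and 787 and 893 CPM in WKY. The fibroblast list (14 genes, all measured) summed to 15188 to 25290 CPM in SHR and 6197 to 16931 CPM in WKY, and edgeR called 1 of the 14, Tcf21, higher in SHR. By unadjusted p below 0.05, 7 of the 14 were higher and 0 lower in SHR, where 6.1% of all genes were higher. DESeq2 called 6 higher and 0 lower, where it called 5.14% of genes with an adjusted p in either direction. The median log2 fold change was 1.22. In batch 2, 4 of the 14 were higher, against the same 21% of all genes. The mesothelial and simple epithelial list summed to 513 to 1615 CPM in SHR and 175 to 692 CPM in WKY. Of its 8 tested members edgeR called 0 between strains and 1 higher in batch 2. DESeq2 called 2 of the list higher in SHR, against the same 5.14% of genes. Msln, the mesothelin gene, lay at 379 to 758 CPM in SHR and 61.3 to 620 CPM in WKY, and the strains overlapped. Of the keratin genes of simple epithelia on the list, Krt7 had 57.2, 127 and 103 CPM in SHR replicates 1, 2 and 3, against 0.404, 2.85 and 0.373 CPM in WKY replicates 1, 2 and 3, with no overlap between strains (edgeR adjusted p = 0.103). Krt8 lay at 2.20 to 99.3 CPM in SHR and 1.96 to 13.4 CPM in WKY, Krt18 at 0 to 39.1 CPM in SHR and 0.0529 to 5.22 CPM in WKY, and Krt19 at 0 to 0.416 CPM in SHR and 0 in all WKY libraries. The leukocyte list summed to 28.9 to 67.8 CPM in SHR and 30.5 to 55.7 CPM in WKY, and its defining marker Ptprc was at 0 in every library. The part of these marker levels in the connexin values was not tested.

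Gja1 encodes connexin 43, the most widespread connexin of the body and a main one of vascular muscle and fibroblasts. It had 659, 683 and 405 CPM in SHR replicates 1, 2 and 3, against 278, 587 and 164 CPM in WKY replicates 1, 2 and 3. The strains overlapped, because the batch 2 SHR library lay below WKY replicate 2, yet within each batch every SHR library lay above every WKY library. Gja1 averaged 582 ± 154 CPM in SHR and 343 ± 219 CPM in WKY (SD, n = 3 each), and the edgeR fit with a batch term gave a log2 fold change of 0.86 (SE 0.33, unadjusted p = 0.0410, adjusted p = 0.362), so the difference did not pass the test. It was 0.63 within batch 1 and 1.31 between the single libraries of batch 2, on the log2 scale. The fibroblast sums given above were also higher in SHR than in WKY within each batch. In batch 2 the largest part of the SHR sum was Gsn, with 11357 CPM in SHR replicate 3 and 858 CPM in WKY replicate 3. Col1a1 went the other way there, with 4560 CPM in SHR and 10878 CPM in WKY. The part of these markers in the Gja1 values was not tested.

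Gja5 encodes connexin 40, an arterial endothelial and conduction system connexin. It had 56.0, 92.5 and 378 CPM in SHR replicates 1, 2 and 3, against 645, 223 and 568 CPM in WKY replicates 1, 2 and 3. Both batch 1 SHR libraries lay below all WKY libraries, and the batch 2 SHR library lay between WKY replicate 2 and the other WKY libraries. The means were 175 ± 176 CPM in SHR and 478 ± 225 CPM in WKY (SD, n = 3 each). The fitted log2 fold change of -1.91 (SE 0.64, unadjusted p = 0.0290) was the widest strain difference among the 6 genes and did not pass the edgeR test (adjusted p = 0.332). The DESeq2 Wald test called it lower in SHR (log2 fold change -1.89, adjusted p = 0.0174), while its adjusted p in the other alternatives lay between 0.292 and 1. Within batch 1 it was -2.55, and between the single libraries of batch 2 it was -0.59. In the batch 1 libraries the fibroblast sums were 18636 and 15188 CPM in SHR and 6197 and 11157 CPM in WKY. The smooth muscle sums were 962 and 879 CPM in SHR and 787 and 893 CPM in WKY. The mesothelial and simple epithelial sums overlapped, at 513 and 712 CPM in SHR and 692 and 359 CPM in WKY. The endothelial sums also overlapped, at 52.9 and 78.0 CPM in SHR and 102 and 74.8 CPM in WKY. WKY replicate 1 had both the highest endothelial sum and the highest Gja5 level. The part of these markers in the Gja5 difference was not tested. Without WKY replicate 1, the library with the highest Gja5 level, it was -1.17.

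**Figure D2:**
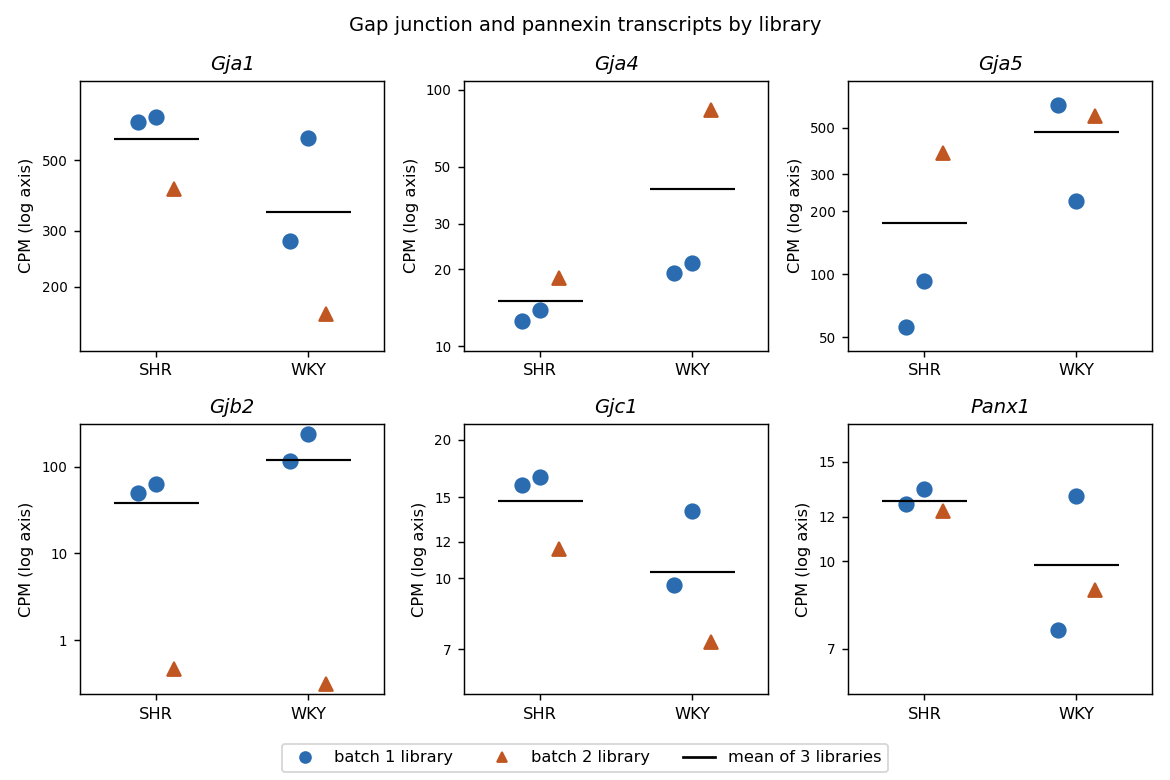
Level of each transcript in CPM (log axis, its range set for each gene), with SHR left of WKY, circles for batch 1 and triangles for batch 2 libraries, and a line at the mean of the 3 libraries. Gja1 sits higher and Gja4 and Gja5 lower in SHR within each batch, and Gjb2 is near the floor in both batch 2 libraries.

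Gja4 encodes connexin 37, which pairs with connexin 40 in arterial endothelium. It had 12.5, 13.9 and 18.5 CPM in SHR replicates 1, 2 and 3, against 19.3, 21.1 and 83.1 CPM in WKY replicates 1, 2 and 3. It was the member in which no SHR library overlapped a WKY library, a pattern of 1 of the 6 genes and of 9.81% of all genes tested. The batch 2 WKY library stood far above the other WKY libraries. The means were 15 ± 3.15 CPM in SHR and 41.2 ± 36.3 CPM in WKY (SD, n = 3 each), and the fitted log2 fold change was -1.13 (SE 0.34, unadjusted p = 0.0188, adjusted p = 0.284 in edgeR). It was -0.62 within batch 1 and -2.17 between the libraries of batch 2. Leaving out SHR replicate 3 or WKY replicate 3 gave -0.61, because the strain difference then rests on batch 1 alone. The term that tests whether the strain difference differs between batches was -1.55 (SE 0.27, unadjusted p = 0.00211) and did not pass the edgeR test (adjusted p = 0.192), though it passed the DESeq2 Wald test (-1.57, adjusted p = 0.0251). The same term had an unadjusted p below 0.05 in 12.7% of genes tested and an adjusted p below 0.05 in 0% of them. For the other 5 members it had an adjusted p between 0.519 and 0.947.

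Gjb2 encodes connexin 26, a connexin of epithelia and the inner ear. Its level was set apart by batch far more than by strain. It had 0.468 CPM (9 counts) in SHR replicate 3 and 0.311 CPM (5 counts) in WKY replicate 3, both in batch 2, against 49.3 and 63.8 CPM (939 and 1251 counts) in the batch 1 SHR libraries and 117 and 238 CPM (2308 and 4503 counts) in the batch 1 WKY libraries. No batch 2 library overlapped a batch 1 library, which was so for 57.6% of all genes tested. The fitted log2 difference of batch 2 over batch 1 was -7.96 (SE 0.72, adjusted p = 0.00189 in edgeR), or 249-fold lower, the 13th lowest value of 12614 genes. It was -6.92 within SHR and -9.16 within WKY, and its adjusted p was at most 0.0114 with any 1 library left out. Between strains, both batch 1 SHR libraries lay below both batch 1 WKY libraries (log2 difference -1.65), and in batch 2 the single libraries differed the other way on few counts (0.59). The fitted strain difference was -1.37 (SE 0.48, unadjusted p = 0.0325, adjusted p = 0.343), and it was -0.76 without WKY replicate 2.

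Other genes were also counted in libraries of 1 batch and listed at 0 in the other. These were taken at a mean of at least 5 CPM in one batch, here scaled by library totals alone. At that level, 11 genes had 0 counts in both batch 2 libraries and 4 genes had 0 counts in all batch 1 libraries. Rps6, a ribosomal protein gene that every growing cell uses, had 20879 counts in SHR replicate 3 and 10565 in WKY replicate 3, both in batch 2, and was listed at 0 in all batch 1 libraries. Gjb2 was low but not at 0 in batch 2. Whether reads of Gjb2 were counted alike in both batches was not tested.

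Gjc1 encodes connexin 45, a low-conductance connexin of muscle and the developing heart. It had 16.0, 16.6 and 11.5 CPM in SHR replicates 1, 2 and 3, against 9.64, 14.0 and 7.28 CPM in WKY replicates 1, 2 and 3. As with Gja1, SHR lay above WKY within each batch, but the batch 2 SHR library lay below WKY replicate 2. The means were 14.7 ± 2.76 CPM in SHR and 10.3 ± 3.39 CPM in WKY (SD, n = 3 each), with a fitted log2 fold change of 0.53 (SE 0.20, unadjusted p = 0.0368, adjusted p = 0.355 in edgeR). Within batch 1 it was 0.47, and in batch 2 it was 0.67.

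Panx1 encodes pannexin 1, the ATP release channel of many cell types. It had 12.7, 13.5 and 12.3 CPM in SHR replicates 1, 2 and 3, against 7.57, 13.1 and 8.89 CPM in WKY replicates 1, 2 and 3. The SHR libraries lay close together and WKY replicate 2 lay among them, while the other WKY libraries were lower. The means were 12.8 ± 0.609 CPM in SHR and 9.84 ± 2.86 CPM in WKY (SD, n = 3 each), and the fitted log2 fold change was 0.38 (SE 0.24, unadjusted p = 0.168, adjusted p = 0.551 in edgeR). It was 0.19 without WKY replicate 1 and 0.64 without WKY replicate 2.

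Read as a group, 0 of the 6 genes passed the edgeR test between strains, where 0.254% of all genes passed, and DESeq2 called 1 of 6, Gja5, where it called 5.14% of genes with an adjusted p. At an unadjusted p below 0.05 there were 5 of 6, against 13.3% of all genes tested. Of these 2 (Gja1 and Gjc1) were higher in SHR, against 6.1% of all genes, and 3 (Gja4, Gja5 and Gjb2) were lower in SHR, against 7.18% of all genes. Strains that were apart within batch 1 and ordered the same way in batch 2 were seen in 4 of 6, namely Gja1, Gja4, Gja5 and Gjc1, against 27.9% of all genes tested. The genes were chosen with earlier results of these data known, so these counts are a description.

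Between batches, edgeR called 1 of the 6 genes lower (Gjb2) and 1 higher (Gja4) in batch 2, where 22.5% and 21% of all genes were called lower and higher. Gja4 averaged 50.8 CPM in batch 2 and 16.7 CPM in batch 1, with a log2 difference of 1.34 (SE 0.35, adjusted p = 0.0278). This call was lost without any single batch 1 library (adjusted p between 0.0520 and 0.0901). The difference was 2.04 without SHR replicate 3 and 0.48 without WKY replicate 3. Those fits leave 1 library in batch 2, so the batch difference rests on the other strain alone. As a ratio of mean CPM it was 0.49 within SHR and 2.04 within WKY, on the log2 scale. Gja5 averaged 473 CPM in batch 2 and 254 CPM in batch 1 (1.48, SE 0.64, adjusted p = 0.118), with 2.35 within SHR and 0.39 within WKY, and Gja1 averaged 284 CPM in batch 2 and 552 CPM in batch 1 (-1.05, SE 0.36, adjusted p = 0.0605). Gjc1 (-0.59, adjusted p = 0.0686) and Panx1 (-0.15, adjusted p = 0.660) did not pass. DESeq2 called 4 of the 6 genes between batches, where it called 46.7% of genes with an adjusted p. The 2 batch 2 libraries were also those with the highest smooth muscle sums, given above, and the part of that in the Gja4 and Gja5 values was not tested.

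**Figure D3:**
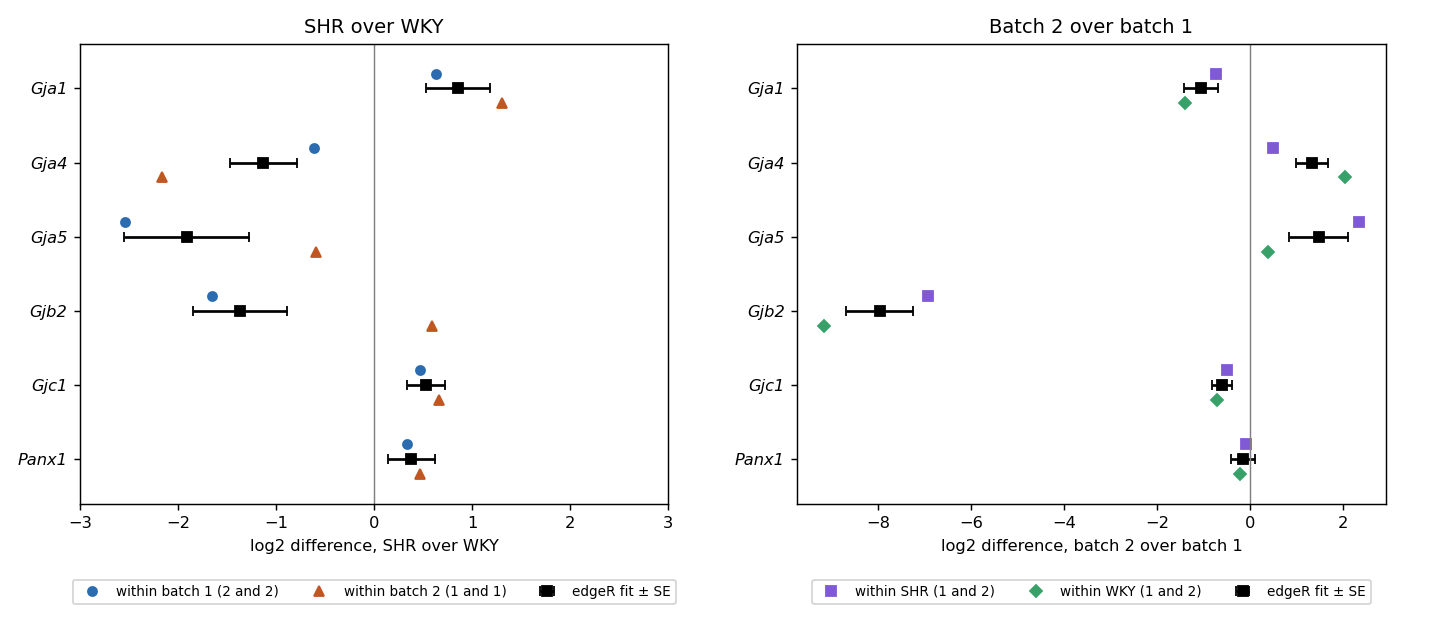
Log2 difference of each transcript for SHR over WKY (left) and batch 2 over batch 1 (right). Black squares and bars are the edgeR fit and its SE, and coloured symbols are ratios of mean CPM within a batch or within a strain, with the number of libraries of each side in the legend; the Gja4 and Gja5 strain differences have the same sign in both batches (-0.62 and -2.17, and -2.55 and -0.59), and the Gjb2 batch difference is -6.92 within SHR and -9.16 within WKY.

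The makeup of the connexin counts was compared next, over 13 measured connexin genes. These are shares of counts, and since no transcript lengths were used here, they compare libraries and not numbers of molecules between connexins. The summed connexin level was 822 to 908 CPM in SHR and 857 to 1108 CPM in WKY, with means of 851 ± 49.4 CPM in SHR and 1021 ± 143 CPM in WKY (SD, n = 3 each; exact two-sided permutation p = 0.2, a test that takes no account of batch). Within batch 1 the sums were 822 and 908 CPM in SHR and 1099 and 1108 CPM in WKY, and in batch 2 they were 823 CPM in SHR and 857 CPM in WKY, so every SHR library lay below the WKY libraries of its batch. The 5 connexins described above held 95.7% to 98.8% of the sum.

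Gja1 took 80.1%, 75.2% and 49.2% of connexin counts in SHR replicates 1, 2 and 3, against 25.3%, 53.0% and 19.1% in WKY replicates 1, 2 and 3. The Wilson 95% interval, which covers counting error only, was 48.4% to 49.95% for SHR replicate 3. Gja5 took 6.81%, 10.2% and 45.9% in SHR replicates 1, 2 and 3, against 58.7%, 20.1% and 66.3% in WKY replicates 1, 2 and 3. Gja1 counts therefore exceeded Gja5 counts in every SHR library, 11.8-fold, 7.38-fold and 1.07-fold in replicates 1, 2 and 3, and 2.64-fold in WKY replicate 2. In WKY replicates 1 and 3, Gja5 counts exceeded Gja1 counts 2.32-fold and 3.47-fold.

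The Gja1 share averaged 68.1 ± 16.6% in SHR and 32.5 ± 18.1% in WKY, and the Gja5 share 21.0 ± 21.6% in SHR and 48.3 ± 24.8% in WKY (SD, n = 3 each). Each gave an exact two-sided permutation p of 0.2, where 3 against 3 libraries allow no less than 0.1. Within batch 1 SHR minus WKY was 38.5 percentage points for Gja1 and -30.9 for Gja5, and in batch 2 it was 30.1 and -20.4. Gjb2 held 6.0% and 7.02% in the batch 1 SHR libraries and 10.6% and 21.5% in the batch 1 WKY libraries. In batch 2 its share was 0.0569% in SHR (Wilson 95% interval 0.0299% to 0.108%) and 0.0363% in WKY (0.0155% to 0.0849%). Gja4 held 1.52% to 2.25% in SHR and 1.75% to 9.70% in WKY, where the highest value was that of the batch 2 library. Plain strain means of these shares take no account of batch. On them the Gjb2 difference was -6.35 percentage points with all libraries and -0.961 without WKY replicate 2. The Gja4 difference was -2.69 with all libraries and -0.0642 without WKY replicate 3. Leaving out 1 library makes the batches unequal between strains, so these shifts mix strain with batch. Within batch 1 SHR minus WKY was -9.54 for Gjb2 and -0.306 for Gja4, and in batch 2 it was 0.0206 and -7.45. Gjc1 held 1.72 ± 0.284% in SHR and 0.995 ± 0.229% in WKY, with no overlap between strains and the smallest exact p the design allows (0.1). Its CPM overlapped between strains. A share is divided by the summed connexin counts, and the summed level was lower in SHR within each batch, so shares are not independent of it or of each other. Over the 5 shares tested, Benjamini-Hochberg adjusted values lay between 0.333 and 0.5, so no share passed.

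**Figure D4:**
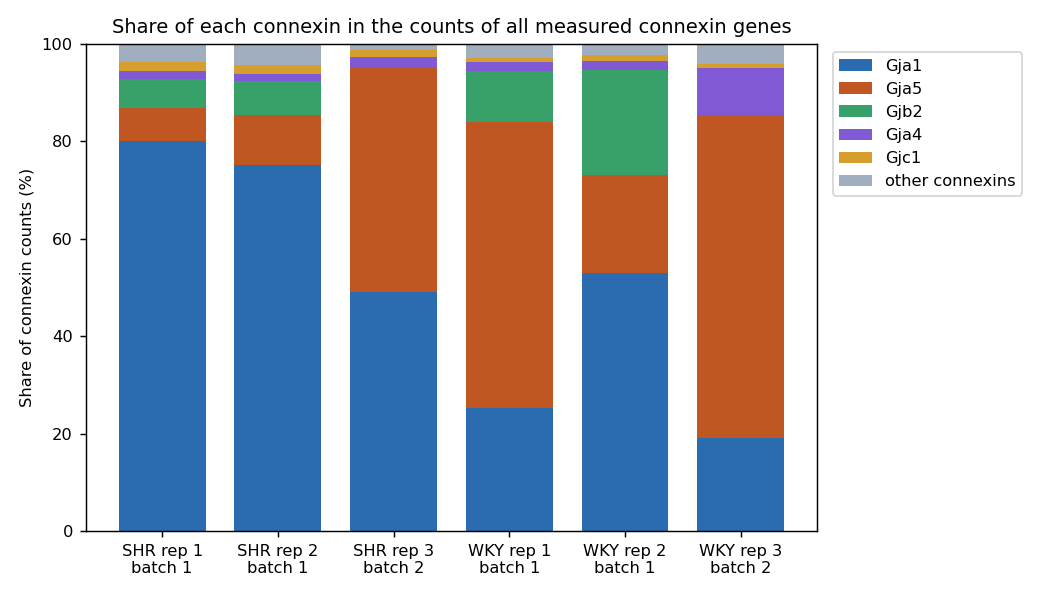
Share (%) of each connexin in the summed counts of all 13 measured connexin genes, 1 bar per library, SHR left of WKY. Gja1 holds 49.2% to 80.1% in SHR and 19.1% to 53.0% in WKY, and the Gjb2 segment is missing from sight in both batch 2 bars because its share there is below 0.06%.

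The upstream sequences of Gja1 and Gja5, which hold the largest mean shares of connexin counts in both strains, and of Gjb2, which has the widest batch difference of the 6 genes, are shown so that their composition can be set beside the values. Each runs from 250 bases before to 50 bases after the gene start in RefSeq, build GRCr8, 5′ to 3′ on the gene's strand, at chr20:36302314-36302613 (plus strand), chr2:187290977-187291276 (plus strand) and chr15:35381904-35382203 (minus strand). Capitals mark matches, on either strand, to 4 motifs searched by their letters. These are the AP-1 core TGANTCA, present in 7.33% of 27457 RefSeq promoters of this length, the GC box GGGCGG (34.9%), TATAAA (14.3%) and the CACC box CCACCC bound by Krüppel-like factors (29.8%).
Gja1: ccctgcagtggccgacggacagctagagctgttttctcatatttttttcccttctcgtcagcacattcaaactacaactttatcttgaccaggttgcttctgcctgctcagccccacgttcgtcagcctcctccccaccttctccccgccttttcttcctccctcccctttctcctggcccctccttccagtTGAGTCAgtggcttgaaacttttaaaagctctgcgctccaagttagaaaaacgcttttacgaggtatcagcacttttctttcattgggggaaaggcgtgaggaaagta
Gja5: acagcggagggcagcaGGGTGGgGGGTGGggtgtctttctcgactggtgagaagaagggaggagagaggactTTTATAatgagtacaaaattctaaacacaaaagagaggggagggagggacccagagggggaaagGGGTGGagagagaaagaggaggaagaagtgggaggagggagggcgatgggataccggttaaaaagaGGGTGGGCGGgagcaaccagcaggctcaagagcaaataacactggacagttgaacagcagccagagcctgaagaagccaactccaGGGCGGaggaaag
Gjb2: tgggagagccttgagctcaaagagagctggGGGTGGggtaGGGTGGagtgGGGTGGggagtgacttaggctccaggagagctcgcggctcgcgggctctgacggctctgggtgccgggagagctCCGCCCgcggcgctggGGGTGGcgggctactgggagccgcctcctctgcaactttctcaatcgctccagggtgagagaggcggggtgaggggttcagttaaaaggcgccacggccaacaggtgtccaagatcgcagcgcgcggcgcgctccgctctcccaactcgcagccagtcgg

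The Gja1 window held 1 AP-1 core, whose first base lies 58 bases before the start, and no match to the other motifs. The Gja5 window held 4 CACC boxes, 2 GC boxes and 1 TATAAA on the other strand, whose first base lies 178 bases before the start, and 1 of the CACC boxes shares letters with a GC box. The Gjb2 window held 4 CACC boxes and 1 GC box. GC content was 50.3% for Gja1, 55.3% for Gja5 and 68% for Gjb2, against a median of 52.3% over all promoters. Such matches describe the letters only. RefSeq windows were matched for 5 of the 6 genes, all but Gjc1.

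Other members of both families were taken as a list. Of 17 listed genes 10 were measured and 3 tested, 0 were called between strains or between batches, and 6 lay below 1 CPM in every library. None of the 3 had an unadjusted strain p below 0.05, and DESeq2 called 0. Gjb5 (1.31 ± 0.199 CPM in SHR and 1.15 ± 0.712 CPM in WKY) and Panx2 (1.2 ± 1.40 CPM in SHR and 0.752 ± 0.0518 CPM in WKY; SD, n = 3 each) were near 1 CPM.

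Proteins that hold, move and degrade connexins were taken as a list of 21 genes, of which 20 were measured and 18 tested. Between strains edgeR called 0, and by unadjusted p (below 0.05) 0 were higher and 3 lower, against 6.1% and 7.18% of all genes. DESeq2 called 1 lower, where it called 5.14% of genes with an adjusted p in either direction. The median log2 fold change was -0.22, against -0.02 over all genes. The smallest strain p values belonged to Smurf2, a ubiquitin ligase that targets connexin 43 (121 ± 28.2 CPM in SHR and 161 ± 31.9 CPM in WKY, adjusted p = 0.255), and Tjp1, the gene of the scaffold ZO-1 that binds the connexin 43 tail (144 ± 83.0 CPM in SHR and 222 ± 167 CPM in WKY, adjusted p = 0.345; SD, n = 3 each). Between batches 9 of the 18 rose and 2 fell in batch 2, where 21% of all genes tested were called higher and 22.5% lower. The ubiquitin ligase gene Wwp1 averaged 51.8 CPM in batch 2 and 22.5 CPM in batch 1 (log2 difference 1.2, adjusted p = 0.00263), and Hgs, an endosomal sorting gene, averaged 299 CPM in batch 2 and 134 CPM in batch 1 (1.16, adjusted p = 0.00276).

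Kinases and phosphatases that act on connexins numbered 19, all tested, and edgeR called 0 between strains. By unadjusted p below 0.05, 1 was higher and 1 lower, against 6.1% and 7.18% of all genes. DESeq2 called 0 higher and 1 lower, where it called 5.14% of genes in either direction, and the median was -0.04. Prkcd, a protein kinase C gene, had 57.8, 58.5 and 119 CPM in SHR replicates 1, 2 and 3, against 136, 82.3 and 276 CPM in WKY replicates 1, 2 and 3 (log2 fold change -1.01, SE 0.22, adjusted p = 0.193). Cdk1, the mitotic kinase gene that also phosphorylates connexin 43, had 139, 147 and 14.2 CPM in SHR and 105, 119 and 9.82 CPM in WKY (0.42, SE 0.13, adjusted p = 0.279). Between batches 9 of the 19 rose and 4 fell in batch 2, against those same 21% and 22.5% of all genes. Cdk1 averaged 12.0 CPM in batch 2 and 128 CPM in batch 1 (-3.42, adjusted p = 0.000884), and Mapk7, the gene of the flow-responsive kinase ERK5, averaged 67.1 CPM in batch 2 and 21.4 CPM in batch 1 (1.64, adjusted p = 0.00105).

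Of 21 transcription factors and arterial signals linked to connexin genes 20 were measured and 17 tested, and edgeR called 0 between strains, with 0 at an unadjusted p below 0.05, 0 by DESeq2 and a median of 0.02. Notch4, a Notch receptor of arteries, averaged 6.45 ± 6.16 CPM in SHR and 11.9 ± 13.5 CPM in WKY (SD, n = 3 each; adjusted p = 0.389). Klf4, a flow-induced Krüppel-like factor gene, averaged 194 ± 64.2 CPM in SHR and 134 ± 27.7 CPM in WKY (SD, n = 3 each; adjusted p = 0.490). Between batches 5 of the 17 rose and 0 fell in batch 2 (21% and 22.5% of all genes), among them Notch4 (20.5 CPM in batch 2 and 3.51 CPM in batch 1, adjusted p = 0.00259) and Tbx18, a T-box factor gene of mural cells (54.1 CPM in batch 2 and 8.25 CPM in batch 1, adjusted p = 0.00318).

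For Panx1, genes of extracellular ATP handling and pannexin partners were listed, 23 in all, of which 22 were measured and 16 tested. Between strains edgeR called 0, while by unadjusted p (below 0.05) 1 was higher and 2 were lower, against 6.1% and 7.18% of all genes. DESeq2 called 1 higher and 3 lower, where it called 5.14% of genes in either direction, and the median was 0.21. Entpd2, an ectonucleotidase that removes phosphate from ATP, had 4.41, 2.45 and 21.9 CPM in SHR replicates 1, 2 and 3, against 1.77, 1.43 and 5.41 CPM in WKY replicates 1, 2 and 3 (2.68-fold higher in SHR in the fit, adjusted p = 0.231). Enpp1, which makes pyrophosphate from ATP, had 158, 135 and 89.3 CPM in SHR and 772, 207 and 447 CPM in WKY (-1.93, SE 0.51, adjusted p = 0.255). For Enpp1 no SHR library overlapped a WKY library, a pattern of 9.81% of all genes tested. Between batches 3 of the 16 rose and 2 fell in batch 2, shares no larger than the 21% and 22.5% of all genes. The smallest p values among them were those of Calhm2, a large-pore channel gene, which averaged 85.3 CPM in batch 2 and 44.3 CPM in batch 1 (0.94, adjusted p = 0.00340), and of Entpd2, which averaged 13.7 CPM in batch 2 and 2.51 CPM in batch 1 (2.25, adjusted p = 0.00552).

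The genes whose levels ran closest to each member were found by the root mean square difference of centred log2 CPM over the 6 libraries, among 10480 genes whose mean reached 5 CPM. Limk1, a kinase of the actin regulator cofilin, lay 0.13 log2 units from Gja1, and Fzd6, a Wnt receptor gene, lay 0.20 from it, where Gja1 itself varied by 0.75 around its mean. Nearest to Gja4, which varied by 0.90, were Cystm1 (0.14) and Specc1 (0.17). Nearest to Gja5, which varied by 1.31, were Gcnt2, a glycosyltransferase gene (0.32), and Cyp1b1, a cytochrome P450 gene (0.40). Cyp1b1 had 53.4, 59.2 and 218 CPM in SHR replicates 1, 2 and 3, against 305, 86.5 and 302 CPM in WKY replicates 1, 2 and 3, the order of Gja5 in those libraries. For Gjb2, which varied by 3.67, the nearest were Pomp, the gene of a proteasome maturation factor (0.73), and LOC100360449 (0.77), and both had 0 counts in the batch 2 libraries. Pomp is among the 11 genes listed at 0 in batch 2. Crcp (0.09) and the coenzyme Q gene Coq2 (0.11) were nearest to Gjc1, which varied by 0.42, and Sec14l1 (0.08) and LOC691807 (0.13) were nearest to Panx1, which varied by 0.31.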

How the data were processed

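RNA from 3 SHR and 3 WKY libraries was sequenced in pairs of reads on a DNBSEQ instrument, per the labels' protocols. The authors deposited estimated counts per gene, not normalized, and 8.96% of these expected counts were not whole (tolerance 0.001). Tools listed in the submitters' processing notes, without roles, are RSEM 1.2.28, Bowtie2 2.4.4 and DESeq2 1.42.1, and the build listed is Rnor_6.0. Handling of strand and of overlapping genes is not stated in the sources used here. The authors also deposited log2 values, in which batch means are equal in every gene (largest difference 7.5e-09).

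Estimated counts were rounded, 12614 of 16193 genes with a count passed filterByExpr by strain, and CPM were scaled by TMM. Strains and batches were compared in one edgeR 4.0.16 quasi-likelihood fit (R 4.3.3) on strain plus batch, leaving 3 residual degrees of freedom, Benjamini-Hochberg adjusted over all genes tested and called below 0.05. All tests were two-sided, and SE came from the fold change and F statistic. The code was tested on simulated data. Alternatives were other scalings and filters, DESeq2 1.42.0, limma 3.58.1 on the deposited log2 values, no batch term, a replicate block, batch 1 alone, and each library left out. Where this left 1 library of a strain and batch, it was assumed to vary like the others.

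Same-numbered libraries of the strains deviated together from their strain means (correlations 0.303, 0.400 and 0.655), the number being tied to batch in the labels. Differently numbered libraries of batch 1 did so too, at 0.484 for SHR replicate 1 with WKY replicate 2. The correlation was 0.493 for SHR replicate 2 with WKY replicate 1. Within batch 1 the differences of replicate 1 minus 2 correlated at -0.197.

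The named genes were the 6 members, the 2 genes nearest to each, and the 2 genes of each list with the smallest p in either contrast; markers and batch examples were added after their values were seen. A gene named by this rule is not reported here. Members and lists were chosen with earlier results of these data known. Promoters and current symbols came from RefSeq, GRCr8, which matched 94.1% of identifiers and all 6 members.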

Additional observations from a re-analysis of the deposited data

How the results depend on the processing

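The strain differences of the 6 genes kept their direction under every alternative run, and edgeR called none of them in any. With 1 library left out they lay between 0.63 and 1.28 for Gja1, -1.35 and -0.61 for Gja4, -2.54 and -1.17 for Gja5, -1.67 and -0.76 for Gjb2, 0.40 and 0.72 for Gjc1, and 0.19 and 0.64 for Panx1. The values nearest to 0 came without WKY replicate 3 or SHR replicate 3 for Gja1 and Gja4, without WKY replicate 1 for Gja5, Gjc1 and Panx1, and without WKY replicate 2 for Gjb2. Without WKY replicate 3 or SHR replicate 3 the strain difference rests on batch 1 alone. DESeq2 called Gja5 (log2 fold change -1.89, adjusted p = 0.0174). The number of genes called between strains was 32, against 719 by DESeq2, 2 without the batch term and 6 with the replicate block, and 0 to 65 with 1 library left out (edgeR; 0 without SHR replicate 1 or 2, 65 without WKY replicate 2, 4 without WKY replicate 1, 20 without WKY replicate 3). The replicate block changed no call of the 6 genes. Of the genes on the lists, 1 was called between strains, against 16 by DESeq2, 2 by limma on the deposited log2 values, 0 without the batch term, 0 with the replicate block, and 0 to 4 with 1 library left out.

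Batch differences moved more. With library totals alone, where the median of all genes shifted to -0.18, Gja1 (-1.22) and Gjc1 (-0.77) passed, and DESeq2 called Gja1 (-1.03) and Gja5 (1.5). Gja4 did not pass without a strain term (1.60). With 1 library left out Gja1 lay between -1.40 and -0.74 (passing without WKY replicate 1 or 2), Gja4 between 0.48 and 2.04, Gja5 between 0.39 and 2.34 (passing without WKY replicate 1), and Panx1 between -0.30 and 0.032, the positive value without WKY replicate 2. Without SHR replicate 3 or WKY replicate 3 the batch difference rests on the other strain alone. The Gja4 interaction passed by DESeq2 (-1.57). The cause of these shifts was not tested. With 1 library left out the share differences (SHR minus WKY, percentage points) kept their sign and lay between 29.0 and 46.0 for Gja1, -41.5 and -18.4 for Gja5, -11.7 and -0.961 for Gjb2, -4.03 and -0.0642 for Gja4, and 0.621 and 0.890 for Gjc1. These share differences take no account of batch. Shares per coding length were not run, because no protein lengths were used here, and the deposited log2 values allow no batch test. The 5 and 9 counts of Gjb2 limit any strain comparison in batch 2.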

Other observations

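The log2 values the authors deposited showed Gjb2 in another light than the counts. In them Gjb2 stood at 7.83, 8.10 and 8.55 in SHR replicates 1, 2 and 3, and at 8.70, 9.48 and 8.51 in WKY replicates 1, 2 and 3. Both batch 2 libraries thus lay within the range of the batch 1 libraries on that scale, although they held 9 and 5 counts, against 939 to 4503 counts in batch 1. Gja5 stood at 11.38, 11.78 and 12.11 in SHR and at 13.57, 12.53 and 12.52 in WKY. Its strains did not overlap on the deposited scale, while its CPM overlapped. Gja1 and Gjc1 were likewise apart on that scale and overlapped in CPM, and Gja4 was apart on both. Gjb2 and Panx1 overlapped on both. The share of all genes that were apart on the deposited scale was not counted. The separation there therefore cannot be read as particular to these genes. In CPM, 27.9% of all genes tested were apart within batch 1 and ordered the same way in batch 2. Batch means are equal in every gene of the deposited log2 values, so levels read from them leave out the batch difference.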
